A study of Mus musculus with 9 samples.

Results

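The vessels of the kidney cortex were followed through 10 genes of the endothelium and of angiogenesis, namely Vegfa, Angpt1 and Angpt2 (ligands), Flt1, Kdr and Tek (their receptors), Pecam1, Cdh5 and Emcn (surface and junction proteins) and Nos3 (the endothelial nitric oxide synthase). The genes were taken by symbol from the 21950 genes of the mRNA values, and each level is the sum of the FPKM (fragments per kilobase of transcript, scaled by the mapped fragments) of its transcripts. All 10 had a mean of at least 0.1 FPKM over the 9 libraries and were among the 14537 genes tested. The libraries came from 3 mice a group, with 1 library per mouse, and all mice were males aged 15 weeks, of the BKS.Cg-Dock7m+/+Leprdb/Nju stock or its nondiabetic littermates per the study's methods. Control mice were db/m, which carry 1 mutated and 1 normal copy of the leptin receptor gene, stay lean and were not given rosiglitazone. The dbdb mice carry the mutation on both copies, become obese and diabetic, and received vehicle. The dbR mice were db/db mice given rosiglitazone, which activates the nuclear receptor PPARγ, at 20 mg/kg/day by gavage for 8 weeks from the age of 7 weeks. The mutation is present in every cell, and rosiglitazone in db/m mice was not analysed here, so the drug was seen only in diabetic mice. The RNA was that of whole cortex, in which fewer endothelial cells and less RNA per endothelial cell cannot be told apart.

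In the glomerulus, podocytes release VEGF-A, which crosses the filtration barrier and acts on the endothelium through KDR, the main signalling receptor, while FLT1 binds the same ligand tightly and transmits less signal. Angiopoietin-1 activates the receptor TEK (also called TIE2) and stabilises vessels, and angiopoietin-2, which is stored in endothelial cells, mostly blocks it. PECAM-1 and VE-cadherin (Cdh5) hold neighbouring endothelial cells together, and endomucin (Emcn) is a sialomucin of capillary and venous endothelium.

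The depth of the libraries was estimated from the steps between low values at 24.3 M to 28.8 M fragments, and relative depth ranged from 0.914 to 1.14. Mitochondrial transcripts held 26.9% to 32.8% of the mRNA FPKM. A pair of libraries stood apart in markers of other cells. Control library 1 had a summed FPKM of 103 for 4 haemoglobin genes against 6.38 to 23.3 in the other 8, and dbdb library 3 had 872 FPKM of Cd74, an antigen presentation gene, against 57.6 to 188 elsewhere. Proximal tubule markers (6 genes summing to 2494 to 3160 FPKM) were far above the 10 genes (154 to 206 FPKM summed), and each of the 21 other endothelial markers listed passed the filter.

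Between dbdb and control mice, 4 of the 10 genes fell (Emcn, Pecam1, Kdr and Cdh5) and none rose. The share of all 14537 genes called at an adjusted p under 0.05 was 26.4% in this comparison, 13.4% in the lower and 13.1% in the higher direction. All 3 dbdb libraries lay below all 3 controls for 6 of the 10 genes, against 21.2% of all genes. The median log2 fold change of the 10 was -0.28, against -0.0030 over all genes tested. Between dbR and dbdb mice, 4 of the 10 genes rose (Emcn, Kdr, Angpt1 and Tek) and none fell, where 0.743% of all genes were called and 0.564% were called higher. For 7 of the 10, all dbR libraries lay above all dbdb libraries, against 10.7% of all genes, and the median was 0.39. Between dbR and control mice, 3 of the 10 rose (Tek, Flt1 and Angpt1), and none fell, where 24.1% of all genes were called (12.3% higher and 11.8% lower), and the median was 0.05. The dbR libraries lay above all controls for 4 genes (20.8% of all genes) and below them for 1 (21.1% of all genes). Any 2 of the comparisons share the libraries of 1 group, so a low set of dbdb libraries enters both of the first comparisons. A high set of dbR libraries enters both of the last, in each of which Tek and Angpt1 were called. With mitochondrial genes left out and every library scaled to the same sum, 2 of the 10 (Emcn and Pecam1) were called in dbdb vs. control and 1 (Emcn) in dbR vs. dbdb, all in the same direction. That scaling called 4461 of all genes in dbdb vs. control (3840 in the main fit), of which 78.3% were higher. In dbR vs. dbdb it called 107 of all genes (108 in the main fit). The calls of dbR vs. dbdb rested on the full set of libraries. Of the 4 calls 3 were left without any 1 of the controls or without dbdb 3, 1 without dbdb 1, dbdb 2 or dbR 1, and 0 without dbR 2 or dbR 3. In dbdb vs. control 2 to 4 and in dbR vs. control 1 to 3 of the 10 were called when 1 library was left out, with 2 in the first without control 2 and 1 in the second without control 1, control 3, dbR 1 or dbR 2. Of all genes, 2755 to 3834 were then called in dbdb vs. control (3840 in the main fit) and 2477 to 3570 in dbR vs. control (3497 in the main fit). In dbR vs. dbdb 2 to 141 of all genes were called.

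**Figure D1:**
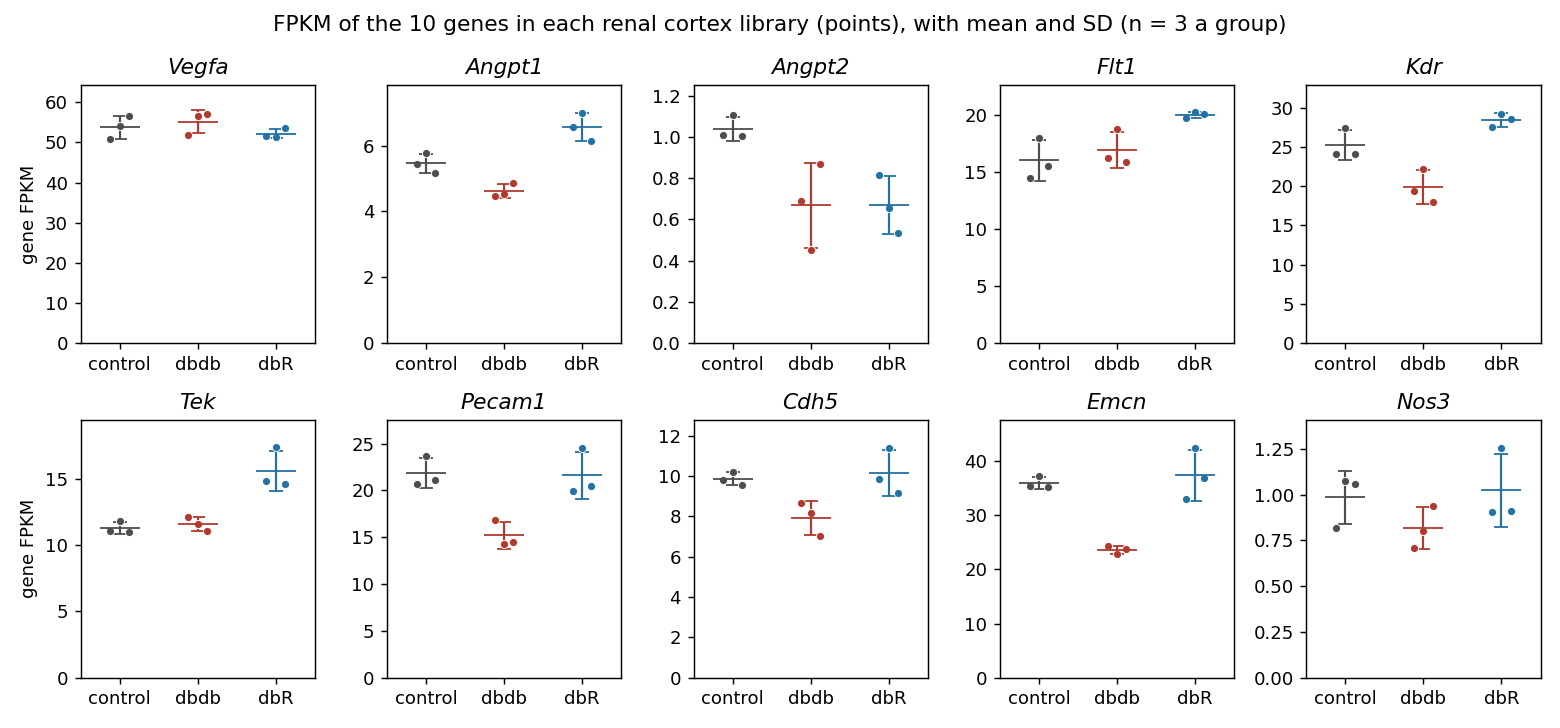
Gene FPKM (y axis, linear, from 0) of the 10 genes in the 3 control, 3 dbdb and 3 dbR libraries; points are libraries, and the horizontal line and bar are the mean and SD. The dbdb points of Kdr, Pecam1, Cdh5 and Emcn sit below both other groups, while Tek and Flt1 are highest in dbR and the Vegfa groups overlap.

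Among the ligands, Vegfa (chr17:46016993-46032369, minus strand, GRCm38) was the highest of the 10 genes and did not differ between groups beyond the spread of the libraries. Its gene FPKM was 50.9, 54.1 and 56.6 in the control, 51.9, 56.6 and 57.2 in the dbdb and 51.6, 51.4 and 53.6 in the dbR libraries, and the 3 groups overlapped. The log2 fold change was 0.04 in dbdb vs. control (95% interval -0.10 to 0.17, limma adjusted p = 0.698) and -0.08 in dbR vs. dbdb (-0.21 to 0.06, adjusted p = 0.534).

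Vegfa is spliced into forms that differ in heparin binding, and 3 transcripts carried nearly all of its FPKM. The longest, with 392 codons, holds an exon of 72 coding bases (exon 6, chr17:46022277-46022348, minus strand) that the middle form of 368 codons skips. The short form of 324 codons also lacks the next exon, of 132 bases (chr17:46020991-46021122). Both stretches code for heparin-binding residues. They are shown in capitals, between 15 shared coding bases on each side in lower case, 5′ to 3′ from the GENCODE transcripts, because the coding sequences differ only there.
Long form, 72 bases absent from the middle form: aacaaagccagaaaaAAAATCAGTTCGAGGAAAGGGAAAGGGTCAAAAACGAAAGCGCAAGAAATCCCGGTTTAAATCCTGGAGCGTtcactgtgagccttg
Middle form, 132 bases absent from the short form: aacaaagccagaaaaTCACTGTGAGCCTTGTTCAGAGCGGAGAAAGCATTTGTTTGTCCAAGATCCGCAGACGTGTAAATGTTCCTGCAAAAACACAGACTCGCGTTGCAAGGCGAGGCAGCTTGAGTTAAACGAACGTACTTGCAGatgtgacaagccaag
The middle form held 61.8 ± 0.491% of the Vegfa FPKM in control (SD, n = 3), 64.2 ± 3.19% in dbdb and 59.7 ± 0.779% in dbR. The long form held 20.2, 16.6 and 22.9% in the control, 15.7, 16.6 and 13.0% in the dbdb and 18.7, 19.1 and 17.2% in the dbR libraries. Every dbdb share of the long form was below every share of both other groups, though the closest dbdb and control values were 16.56% and 16.62%. The short form held 15.4, 16.4 and 15.6% in control libraries, 17.8, 22.5 and 21.5% in dbdb and 21.5, 19.7 and 20.8% in dbR, so that all diabetic libraries, treated or not, were above the controls. An exact permutation test of 3 against 3 libraries cannot go below p = 0.10, which is the p of both of these dbdb vs. control differences (two-sided, 0.15 after adjustment over 24 tests of ratios and shares). None of the 3 transcripts was called by itself, with an adjusted p of 0.403 (middle), 0.150 (long) and 0.0765 (short) in dbdb vs. control. The short form is annotated with 975 bases, of which 972 are coding, so its FPKM depends on how Cufflinks divided reads that the other forms also hold.

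Angpt1 (chr15:42424723-42676977, minus strand), the activating ligand of TEK, had its highest values in the dbR libraries. Its FPKM was 5.45, 5.76 and 5.17 in control libraries, 4.47, 4.54 and 4.87 in dbdb and 6.58, 7.00 and 6.15 in dbR libraries, 3 ranges that did not overlap. The log2 fold change was 0.50 in dbR vs. dbdb (0.32 to 0.68, adjusted p = 0.0327) and 0.26 in dbR vs. control (adjusted p = 0.0416). The difference of dbdb from control, -0.23, missed the threshold (adjusted p = 0.0587). Only 2 of 20 alternatives called it, a mean of at least 1 FPKM (0.0476) and quantile normalization (0.0257). With mitochondrial genes left out and equal sums it was -0.08 (adjusted p = 0.5955). The dbR vs. dbdb call was lost without dbdb 1, dbdb 2, dbR 1, dbR 2 or dbR 3 (adjusted p = 0.0646 to 0.153) and that against control without control 1, control 2, control 3, dbdb 1, dbdb 2, dbR 1 or dbR 2 (0.0508 to 0.130).

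Angpt2 (chr8:18690263-18741562, minus strand), the antagonist, had the lowest mean of the 10 over the 9 libraries, though Nos3 was lower in the control mean, with an estimated 41 to 98 fragments per library. Its FPKM was 1.01, 1.11 and 1.01 in control libraries, 0.687, 0.454 and 0.867 in dbdb and 0.816, 0.655 and 0.535 in dbR libraries. Both diabetic groups lay below all controls and overlapped each other, and neither difference passed the test (-0.60, adjusted p = 0.0678, and -0.58, adjusted p = 0.0803). Without dbdb 3 the difference of dbdb from control was -0.79 and was called (adjusted p = 0.0316), without dbdb 2 it was -0.39 (adjusted p = 0.208), and with a pseudocount of 1 it was -0.30. Quantile normalization gave a call in dbdb vs. control (adjusted p = 0.0396), and 2 of the 19 alternatives that tested Angpt2 did so in all. The difference of dbR from control was called under 3 of the 19. These were quantile normalization (adjusted p = 0.0278), the fit to 6 libraries (0.0455) and the fit without dbdb 2 (0.0450). The dbR vs. dbdb difference was 0.02 with a wide interval of -0.47 to 0.51.

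Of the receptors, Kdr (chr5:75932827-75978458, minus strand) fell in dbdb mice and rose with rosiglitazone. Its FPKM was 24.1, 27.4 and 24.1 in control libraries, 19.4, 22.2 and 18.1 in dbdb and 27.6, 29.3 and 28.6 in dbR libraries. The dbdb libraries were the 3 lowest and the dbR libraries the 3 highest. The log2 fold change was -0.34 in dbdb vs. control (-0.53 to -0.16, adjusted p = 0.0143) and 0.52 in dbR vs. dbdb (0.33 to 0.71, adjusted p = 0.0309), while dbR vs. control gave 0.18 (adjusted p = 0.157). Without control 2 the first was -0.28 with an adjusted p of 0.0511, and the second was not called without dbdb 1, dbR 1, dbR 2 or dbR 3 (adjusted p = 0.0602 to 0.152).

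Flt1 (chr5:147561604-147726011, minus strand) gives a membrane receptor of 1333 codons and a soluble form of 688 codons that ends inside intron 13 and keeps the ligand-binding part without the membrane anchor. The coding sequences are the same for 1972 bases and then part. The last 30 shared bases are given in lower case and what follows in capitals, on the minus strand, since this switch is what sets the decoy form apart.
Full-length Flt1, the first 60 bases of exon 14 (chr5:147634377-147634523): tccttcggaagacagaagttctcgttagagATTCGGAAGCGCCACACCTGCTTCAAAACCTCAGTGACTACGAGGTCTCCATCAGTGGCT
Soluble Flt1, the 92 coding bases read on from exon 13 (from chr5 position 147639224 downwards, stop codon left out): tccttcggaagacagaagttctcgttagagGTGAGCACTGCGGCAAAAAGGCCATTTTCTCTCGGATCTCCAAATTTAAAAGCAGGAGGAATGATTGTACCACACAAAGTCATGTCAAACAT
The gene FPKM of Flt1 was 14.5, 17.9 and 15.5 in control libraries, 16.2, 18.7 and 15.8 in dbdb and 19.7, 20.2 and 20.1 in dbR libraries. The dbR libraries were the 3 highest and lay close together, and the control and dbdb libraries overlapped. The gene rose in dbR vs. control by 0.33 on the log2 scale (0.13 to 0.53, adjusted p = 0.0252) and differed by 0.24 in dbR vs. dbdb (adjusted p = 0.200) and by 0.08 in dbdb vs. control (adjusted p = 0.534). The call against control was lost without control 1, control 3, dbR 1, dbR 2 or dbR 3 (adjusted p = 0.0581 to 0.0827). The soluble form made up 31.2 ± 2.98% of Flt1 in control libraries, 31.7 ± 1.14% in dbdb and 29.3 ± 1.45% in dbR libraries (SD, n = 3), and all 3 groups overlapped (exact permutation p = 0.9, 0.2 and 0.5 for dbdb vs. control, dbR vs. dbdb and dbR vs. control).

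Tek (chr4:94739289-94874976, plus strand), the angiopoietin receptor, rose with rosiglitazone and was not called in dbdb vs. control. Its FPKM was 11.0, 11.8 and 11.0 in control libraries, 12.2, 11.6 and 11.1 in dbdb and 14.9, 17.4 and 14.6 in dbR libraries. All dbR libraries were above the other 6. The log2 fold change was 0.46 in dbR vs. control (0.29 to 0.64, adjusted p = 0.00256), 0.42 in dbR vs. dbdb (adjusted p = 0.0479) and 0.04 in dbdb vs. control (-0.13 to 0.22, adjusted p = 0.736). The dbR vs. dbdb call was lost whenever any 1 of the 9 libraries was left out, and that against control was kept each time, though not with each gene read from its transcript of the highest mean (adjusted p = 0.0856). With that setting Tek gave 0.25 in dbR vs. dbdb (adjusted p = 0.316). Of its 3 transcripts, the one of 1122 codons (ENSMUST00000071168) rose in dbR vs. control by 0.66 on the log2 scale (adjusted p = 0.00550, where 8.3% of 31858 transcripts were called). The more abundant one of 1123 codons (ENSMUST00000102798) differed by 0.31 (adjusted p = 0.165).

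Emcn (chr3:137341067-137432185, plus strand) was, with Kdr, called in both dbdb vs. control and dbR vs. dbdb, and had the larger fold change in each. Its FPKM was 35.4, 37.3 and 35.2 in control libraries, 24.3, 22.8 and 23.7 in dbdb and 33.0, 42.4 and 36.9 in dbR libraries. The dbdb libraries lay well below the other 6, which overlapped. It fell by 0.61 on the log2 scale in dbdb vs. control (-0.79 to -0.42, adjusted p = 0.000749) and rose by 0.66 in dbR vs. dbdb (0.47 to 0.84, adjusted p = 0.0204), a call lost without dbdb 2, dbR 2 or dbR 3 (adjusted p = 0.0516 to 0.0689). The difference of dbR from control was 0.05 (adjusted p = 0.717). Its main transcript (ENSMUST00000119475, 248 codons, 71.3%, 68.6% and 71.3% of the gene's FPKM in the control, dbdb and dbR groups) was called in dbdb vs. control at -0.66 (adjusted p = 0.00452).

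Pecam1 (chr11:106654217-106750628, minus strand), the adhesion molecule also called CD31, fell in dbdb mice. Its FPKM was 20.7, 23.7 and 21.1 in control libraries, 16.8, 14.2 and 14.5 in dbdb and 19.9, 24.5 and 20.4 in dbR libraries, with the dbdb libraries below all others. The log2 fold change was -0.52 in dbdb vs. control (-0.74 to -0.30, adjusted p = 0.00395), and 0.51 in dbR vs. dbdb, which missed the threshold (adjusted p = 0.0517). Only 3 of 20 alternatives called the second, a mean of at least 1 FPKM, the 75th percentile and quantile normalization (adjusted p = 0.0390 to 0.0435). Its adjusted p under the 20 was at most 0.199. With each gene read from its transcript with the highest mean FPKM, the Pecam1 difference of dbdb vs. control was -0.21 and was not called (limma, adjusted p = 0.440). Leukocytes and platelets also carry PECAM-1, and 5 of 6 leukocyte markers fell in dbdb vs. control (Ptprc, Csf1r, Adgre1, Cd68 and Itgam), against 13.4% of all genes, where the median of the 6 was -0.98. Their summed FPKM was 124 to 209 in control libraries, 64.4 to 881 in dbdb, with Cd74 of dbdb 3 as the highest value, and 85.0 to 159 in dbR. None of the 3 platelet markers tested was called by limma (1 had an unadjusted p under 0.05 in dbdb vs. control, as had 38.8% of all genes), and their summed FPKM did not exceed 3.78 in any library. In dbR vs. dbdb, 5 of the 6 leukocyte markers had a fold change above 0, with a median of 0.47, an unadjusted p under 0.05 for 5 (17.5% of all genes) and no call, beside the 0.51 of Pecam1. In dbR vs. control, where 11.8% of all genes fell and, of the 6, Csf1r did by 1.02 and Ptprc by 0.91 on the log2 scale, Pecam1 differed by -0.02 (-0.24 to 0.20, adjusted p = 0.917). The part of leukocytes in the values of Pecam1 was not tested.

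Cdh5 (chr8:104101625-104144511, plus strand), VE-cadherin, is the adherens junction protein that leukocytes lack. Its FPKM was 9.84, 10.2 and 9.58 in control libraries, 8.65, 8.15 and 7.02 in dbdb and 9.86, 11.4 and 9.18 in dbR libraries, again with the dbdb libraries lowest. It fell by 0.32 on the log2 scale in dbdb vs. control (-0.54 to -0.09, adjusted p = 0.0415) and differed by 0.35 in dbR vs. dbdb (adjusted p = 0.121). The first call was near the threshold and was lost without control 1, control 2, control 3, dbdb 2, dbdb 3 or dbR 1, where the adjusted p was at most 0.126. With mitochondrial genes left out and equal sums the difference was -0.16 and was not called (adjusted p = 0.264). The call was also lost with the 75th percentile, without a filter and without the variance trend (adjusted p = 0.0549 to 0.0622).

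Nos3 (chr5:24364810-24384474, plus strand), which makes the vasodilator nitric oxide, was rare in cortex, with an estimated 74 to 143 fragments per library. Its FPKM was 0.820, 1.08 and 1.06 in control libraries, 0.709, 0.801 and 0.938 in dbdb and 0.907, 1.25 and 0.908 in dbR libraries, and all 3 groups overlapped. Neither difference passed the test, with -0.24 in dbdb vs. control (-0.64 to 0.16, adjusted p = 0.350) and 0.29 in dbR vs. dbdb (-0.11 to 0.68, adjusted p = 0.445).

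**Figure D2:**
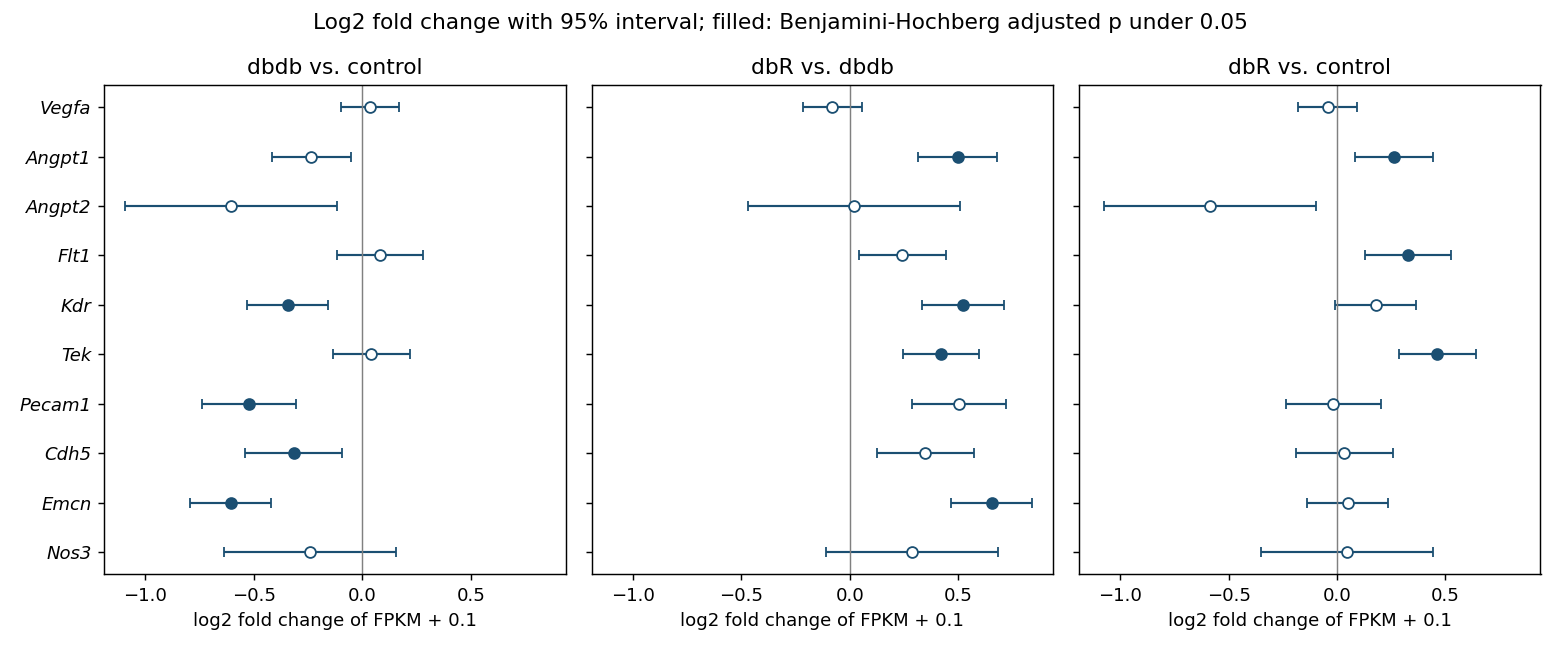
Log2 fold change of FPKM + 0.1 (x axis) of the 10 genes in the 3 comparisons, with 95% intervals from limma; filled points passed an adjusted p under 0.05. In dbdb vs. control the filled points (Kdr, Pecam1, Cdh5, Emcn) are below 0, in dbR vs. dbdb (Angpt1, Kdr, Tek, Emcn) and dbR vs. control (Angpt1, Flt1, Tek) above 0.

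FPKM is per length, so the levels of the genes can be ordered. In control libraries the order was Vegfa, Emcn, Kdr, Pecam1, Flt1, Tek, Cdh5, Angpt1, Angpt2 and Nos3, and of the neighbours only Angpt2 and Nos3 overlapped. In dbdb libraries the ranges of Kdr and Flt1, of Flt1 and Pecam1, and of Nos3 and Angpt2 overlapped. In dbR libraries Pecam1 and Flt1 overlapped and the other neighbours did not. At the transcript level 3 of the 22 member transcripts tested were called in dbdb vs. control (those of Emcn and Kdr and ENSMUST00000080853 of Pecam1, at -0.72), against 9.23% of all transcripts. None was called by limma in dbR vs. dbdb, where 10 of the 22 had an unadjusted p under 0.05 (10.2% of all transcripts did) and 4 of 31858 transcripts (0.0126%) were called. No annotated or assembled lncRNA transcript of the files lay within 100 kb of any of the 10 genes.

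Ratios within a library remove its scaling, and 8 of them were computed after the values of the genes had been seen, giving 24 tests of which the smallest possible p is 0.10. The FPKM of Flt1 over that of Kdr was 0.601, 0.653 and 0.644 in control libraries, 0.837, 0.842 and 0.877 in dbdb and 0.715, 0.690 and 0.700 in dbR libraries. The 3 groups did not overlap, with dbdb highest and control lowest (exact permutation p = 0.10 for each pair, adjusted 0.15). The FPKM of Vegfa over that of Kdr was 2.14 ± 0.189 in control libraries, 2.80 ± 0.329 in dbdb and 1.83 ± 0.0669 in dbR (SD, n = 3), again with no overlap (exact permutation p = 0.10 for each pair, adjusted 0.15). It was highest in dbdb and lowest in dbR. As the Vegfa values of the groups overlapped, this ratio largely repeats the values of Kdr. Angpt1 over Angpt2 was 5.25 ± 0.138 in control libraries, 7.38 ± 2.33 in dbdb and 10.1 ± 1.79 in dbR, where both diabetic groups were above all controls and overlapped each other. Tek over Pecam1 was 0.517 ± 0.0184 in control libraries, 0.767 ± 0.0467 in dbdb and 0.723 ± 0.0198 in dbR, so both diabetic groups were above all controls (exact permutation p = 0.10 for each of them against control, adjusted 0.15). The ratio was high with unlike values of its genes. Mean Pecam1 was 21.8 FPKM in control, 15.2 in dbdb and 21.6 in dbR libraries, and mean Tek was 11.3, 11.6 and 15.6.

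**Figure D3:**
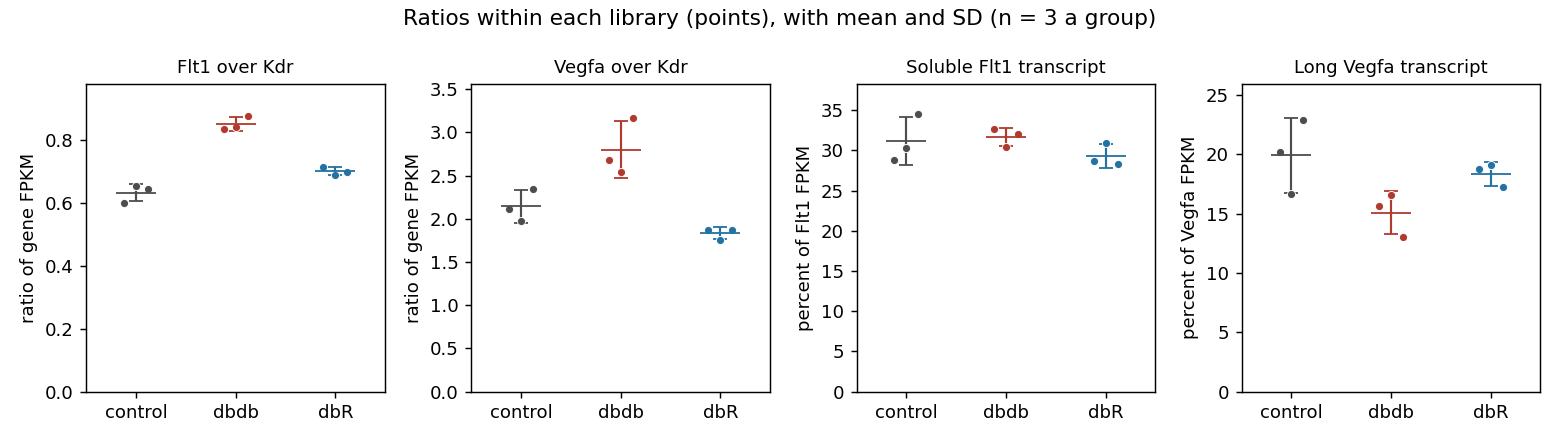
Ratios within each library (y axes from 0), namely Flt1 over Kdr and Vegfa over Kdr as ratios of gene FPKM, and the soluble Flt1 and long Vegfa transcripts as percent of their gene's FPKM; points are libraries, lines and bars the mean and SD of 3. Both ratios to Kdr are highest in dbdb, the soluble share of Flt1 overlaps across groups, and the long Vegfa share is lowest in dbdb.

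Emcn and Kdr both fell in dbdb mice and rose with rosiglitazone, and 5 of the 10 genes (Emcn, Kdr, Flt1, Tek and Vegfa) had a start site in the RefSeq promoter table (GRCm38.p6). The 200 bases upstream of the start, leaving out the nearest 50, are shown for these 2 genes, 5′ to 3′ on the gene's strand. Capitals mark GGAA and its reverse complement TTCC, the core that ETS factors such as ERG and FLI1 bind in endothelial promoters.
Emcn, chr3:137340828-137341027, plus strand: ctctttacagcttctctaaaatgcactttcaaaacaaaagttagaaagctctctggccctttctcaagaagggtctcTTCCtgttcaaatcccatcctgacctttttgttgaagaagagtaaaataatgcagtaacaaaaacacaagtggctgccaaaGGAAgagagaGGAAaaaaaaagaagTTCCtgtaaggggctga
Kdr, chr5:75978506-75978705, minus strand: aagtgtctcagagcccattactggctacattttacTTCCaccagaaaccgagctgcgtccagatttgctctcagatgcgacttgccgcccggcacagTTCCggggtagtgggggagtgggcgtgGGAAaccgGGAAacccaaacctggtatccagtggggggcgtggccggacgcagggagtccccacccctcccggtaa
Each window held 4 matches, 2 in each orientation. The window of Vegfa at its first start also held 4 and those of Flt1 and Tek 2 each. Of 32851 promoter windows of this length, 89.2% held at least 1 match, 20.4% at least 4, and the median was 2. A match is a description of the letters and not a bound site.

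The wider VEGF and angiopoietin pathway had 9 of 10 listed genes tested. In dbdb vs. control 1 rose and 3 fell, against 13.1% and 13.4% of all genes, with a median of -0.09. The gene that rose was Figf (VEGF-D, a lymphatic growth factor), by 0.94 on the log2 scale (adjusted p = 0.0178). Those that fell were Vegfc (-0.69, adjusted p = 0.0275) and the VEGF co-receptors Nrp1 (-0.54, adjusted p = 0.0108) and Nrp2 (-0.49, adjusted p = 0.00466). In dbR vs. dbdb only Nrp2 of the 9 rose (0.564% of all genes did), by 0.57 (adjusted p = 0.0331), from 4.52, 4.64 and 4.79 FPKM to 6.86, 7.69 and 6.36, and the control libraries had 6.15, 7.32 and 6.32. The 2 most abundant genes of the list, Vegfb and Nrp1, gave 0.01 and 0.40 in that comparison (adjusted p = 0.975 and 0.147). In dbR vs. control Figf alone was called, against 24.1% of all genes (1.14, adjusted p = 0.00762), while Vegfb gave 0.20 and Nrp1 -0.14. Tie1, the partner of TEK, differed by -0.17 in dbdb vs. control (adjusted p = 0.214), and Ptprb, the phosphatase that acts on TEK, by 0.29 in dbR vs. control (adjusted p = 0.0503).

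Of the 21 other endothelial markers, 3 rose and 3 fell in dbdb vs. control, shares near those of all genes (13.1% higher and 13.4% lower), and the median was -0.17. All dbdb libraries lay below all controls for 10 of the 21, against 21.2% of all genes. Gpihbp1, which anchors lipoprotein lipase on the capillary wall, had 14.9, 13.5 and 15.9 FPKM in control libraries, 8.56, 7.72 and 6.19 in dbdb and 11.3, 14.3 and 13.6 in dbR libraries. It fell by 0.98 on the log2 scale in dbdb vs. control (adjusted p = 0.000524) and was the only marker called in dbR vs. dbdb, where 0.743% of all genes were and it rose by 0.80 (adjusted p = 0.0296). Without dbR 2 only 2 of all genes were called in dbR vs. dbdb, and without dbR 3 only 10. In dbdb vs. control Robo4, a guidance receptor of endothelium, fell by 0.57 and Ecscr, an endothelial surface protein, by 0.43. The markers that rose in dbdb were S1pr1 (0.45), Eng (0.31) and Adgrl4 (0.28), a sphingosine phosphate receptor, a co-receptor of TGF-beta and an adhesion GPCR. The summed FPKM of the 21 was 182 to 193 in control libraries, 175 to 186 in dbdb and 211 to 232 in dbR libraries. In dbR vs. dbdb 19 of the 21 had a fold change above 0, against 49.5% of all genes, and the median was 0.27. All dbR libraries lay above all dbdb libraries for 11 of the 21, against 10.7% of all genes. The 2 most abundant of them gave 0.14 (Plvap, adjusted p = 0.399) and 0.32 (Eng, adjusted p = 0.0955). In dbR vs. control 5 rose (Eng, S1pr1, Adgrl4, Plvap and Ehd3) and none fell, where 12.3% of all genes rose and 24.1% were called. Eng went from 21.9, 24.1 and 18.9 FPKM in control to 26.3, 27.2 and 26.8 in dbdb and 33.3, 34.9 and 32.1 in dbR libraries, 3 ranges without overlap.

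**Figure D4:**
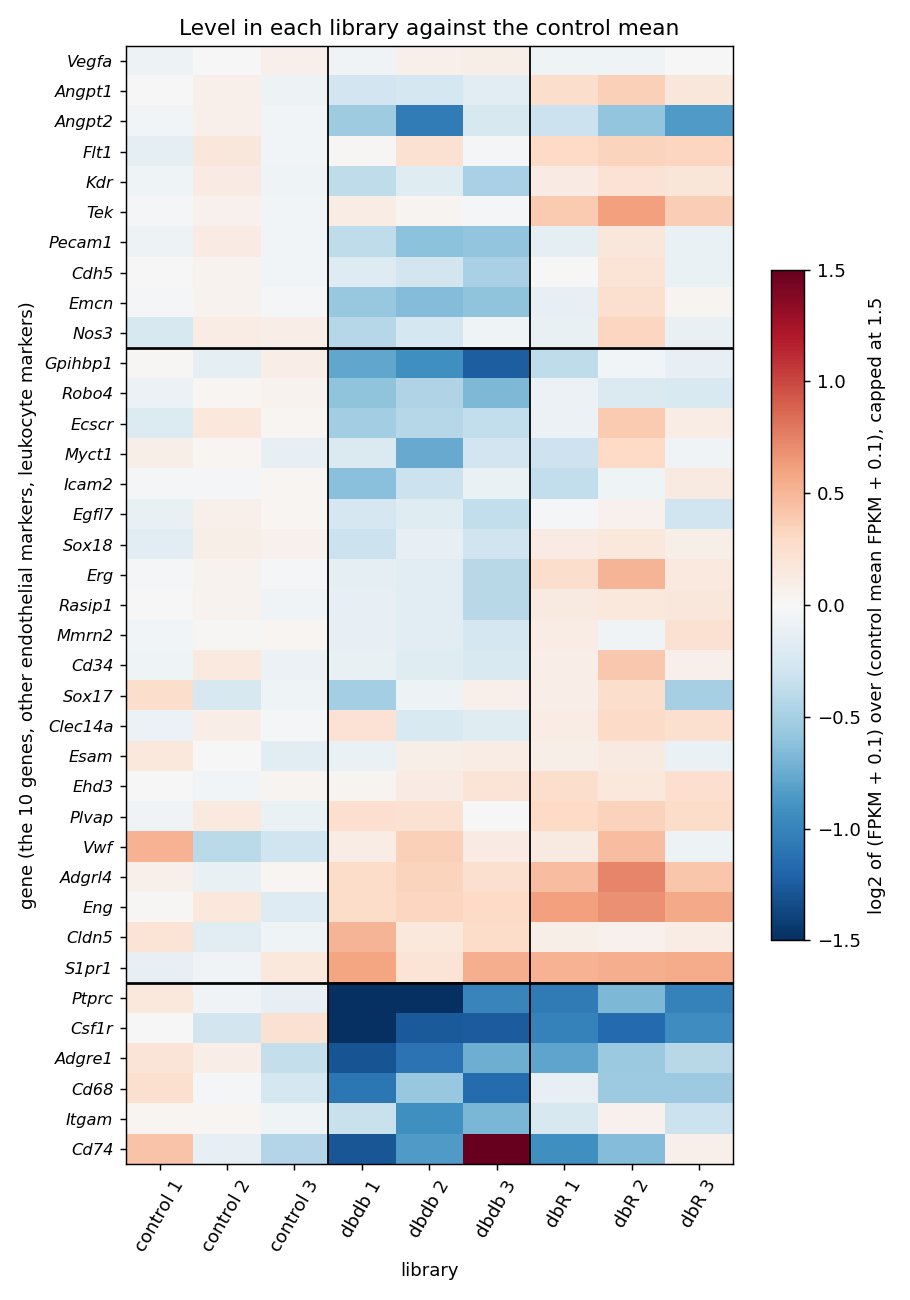
Log2 of FPKM + 0.1 over the control mean (colour, capped at 1.5 either way) for the 10 genes (top block), 21 other endothelial markers (middle, sorted by dbdb vs. control) and 6 leukocyte markers (bottom) in the 9 libraries. The dbdb columns are blue for Emcn, Pecam1 and Gpihbp1 and red for S1pr1 and Eng, the dbR columns are mostly pale or red in the upper blocks, and Cd74 stands out in dbdb 3.

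In the nitric oxide pathway, 3 of 11 genes rose and 2 fell in dbdb vs. control, against 13.1% and 13.4% of all genes. Arg2, an arginase that uses the same substrate as the synthases, rose by 1.11 on the log2 scale (adjusted p = 0.00168), Ddah2 by 0.63 (adjusted p = 0.0118) and Gucy1a3, a subunit of the nitric oxide receptor, by 0.43 (adjusted p = 0.0149). Ddah1, which like Ddah2 degrades inhibitors of the synthases, fell by 0.33 (adjusted p = 0.00290), and the inducible synthase Nos2 fell by 0.98 from a mean of 0.223 FPKM. None of the 11 was called in dbR vs. dbdb, where 2 had an unadjusted p under 0.05 (17.5% of all genes did) and the most abundant were Ddah1 (0.11, adjusted p = 0.352) and Cav1 (0.13, adjusted p = 0.648). In dbR vs. control 6 rose, led by Arg2 (1.30), Gucy1a3 (0.94), Nos1 (0.93) and Ddah2 (0.65), and 1 fell, against 12.3% and 11.8% of all genes.

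Of 10 vascular Notch and ephrin genes, 1 rose and 2 fell in dbdb vs. control, and of 8 inhibitors of angiogenesis 2 rose, where 26.4% of all genes were called. The Notch and ephrin genes were Ephb4, the venous ephrin receptor (0.43, adjusted p = 0.00190), and Hey1 (-0.92, adjusted p = 0.0208) and its upstream ligand Dll4 (-0.54, adjusted p = 0.0197). None was called in dbR vs. dbdb (4 had an unadjusted p under 0.05, as had 17.5% of all genes), and its most abundant members, Ephb4 and Hes1, gave 0.12 and -0.36 there. Against control, 4 rose in dbR mice, Ephb4 (0.55), Notch1 (0.45), Jag1 (0.40) and Notch4 (0.33), where 12.3% of all genes rose and 11.8% fell. Of the inhibitors, Thbs1 (0.86, adjusted p = 0.000255) and Col18a1, the source of endostatin (0.43, adjusted p = 0.0114), rose in dbdb mice. Sema3a, a ligand of NRP1, was the only one of the 8 called in dbR vs. dbdb (0.743% of all genes were), rising by 1.49 (adjusted p = 0.0455), with 0.515, 0.400 and 0.281 FPKM in control libraries, 0.230, 0.196 and 0.377 in dbdb and 1.21, 0.662 and 0.933 in dbR libraries. Against control, Sema3a (1.05), Thbs1 (0.63) and Col18a1 (0.41) rose in dbR mice and Adamts1 fell by 0.61, with the same shares of all genes.

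Vegfa is a target of hypoxia-inducible factors, and of 15 hypoxia genes 7 rose and 1 fell in dbdb vs. control, against 13.1% and 13.4% of all genes. Ndrg1 rose by 0.87 on the log2 scale (adjusted p = 0.00118), Adm, a vasodilator peptide, by 0.70, Egln3 by 0.64, and the carbonic anhydrase Car9 fell by 0.53. None was called in dbR vs. dbdb (3 had an unadjusted p under 0.05, as had 17.5% of all genes), and 4 rose in dbR vs. control (Ndrg1, Egln3, Slc2a1 and Epas1), against 12.3% of all genes. The most abundant of them in dbR vs. dbdb, Ndrg1 and Bnip3, gave 0.17 and 0.10. Of 9 tested genes of endothelial activation and haemostasis, 1 rose in dbdb vs. control (Plat, the tissue plasminogen activator, by 0.59, adjusted p = 0.00536), a share no higher than the 13.1% of all genes. In dbR vs. control Edn1, the precursor of endothelin-1, rose by 0.73 (adjusted p = 0.0153) and Plat rose by 0.48, though neither was called without dbR replicate 2 (0 of the 9 called). None of the 9 was called in dbR vs. dbdb (3 had an unadjusted p under 0.05, again beside 17.5%), where Plat and Ednrb, the most abundant, gave -0.11 and 0.35.

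Markers of other cells were counted in the same way, against 26.4% of all genes called between dbdb and control mice and 0.743% between dbR and dbdb mice, and 12.3% called higher between dbR and control mice. Of 6 podocyte markers 3 rose in dbdb vs. control (Nphs1, Podxl and Ptpro). With mitochondrial genes left out and equal sums 5 rose, but the median of all genes then moved up to 0.15. There 78.3% of 4461 calls were higher, against 49.5% of 3840 in the main fit. The summed FPKM of the 6 was 77.0 to 87.6 in control libraries, 90.7 to 96.8 in dbdb and 83.3 to 101 in dbR libraries. Of 5 markers of mesangial cells and pericytes, which sit on capillaries, Pdgfrb rose in dbR vs. dbdb by 0.69 (adjusted p = 0.0234) and Cspg4 rose in dbdb vs. control by 0.65 (adjusted p = 0.00715). Against control, 2 of the 5 (Cspg4 and Pdgfrb) rose in dbR mice, the median was 0.47 and all dbR libraries lay above all controls for all 5 (20.8% of all genes). Of the podocyte markers, 2 of 6 (Nphs1 and Podxl) rose there. Of 5 smooth muscle markers 1 (Smtn) rose in dbdb vs. control, and 4 had a fold change below 0. Lymphatic markers were rare, with Lyve1 below the level tested and neither Prox1 nor Ccl21a called (0 with an unadjusted p under 0.05). Of the tubule markers, 2 of 6 of the proximal tubule rose and 1 fell in dbdb vs. control, and 2 of 4 of the distal segments rose. In dbR vs. control these were 1 and 1 of the 6 and 3 of the 4. None of the 4 haemoglobin genes was called by limma in any comparison (1 had an unadjusted p under 0.05 in dbdb vs. control, where 38.8% of all genes had). The part of these cells in the values of the 10 genes was not tested.

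Among 11614 other genes with a mean of at least 1 FPKM, those most like Kdr over the 9 libraries were Mef2c (Pearson r = 0.97), Btnl9 (0.96) and Mbl1 (0.96), all lowest in dbdb. Mef2c, a transcription factor, had a mean of 6.58 FPKM in control libraries, 4.70 in dbdb and 7.91 in dbR, and Btnl9 of 4.11, 1.94 and 4.79. Those most like Vegfa were 2010003K11Rik (0.90), Ovol1 (0.89) and Ccnj (0.86). These correlations are descriptions over 9 libraries of 3 groups that share their depth and scaling.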

How the data were processed

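Renal cortex RNA of 9 mice was depleted of ribosomal RNA and made into strand-specific libraries. Per the submitters' processing notes, TopHat2 2.0.9 and Cufflinks 2.1.1 were used with GRCm38.p2. The authors deposited transcript FPKM values per library, covering 50660 mRNA transcripts and 2532 lncRNA transcripts. FPKM is divided by transcript length and mapped fragments, and for genes with several transcripts it depends on how Cufflinks divided the reads. No counts were used, so depth is an estimate from the steps between low values, and fragments per gene are estimates.

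FPKM was summed per gene. Genes with a mean of at least 0.1 were fitted as log2(FPKM + 0.1) with limma 3.58.1 (R 4.3.3), in 1 model of 3 groups with a variance trend, and fold changes understate those of low genes. The authors' own test was Cufflinks' count model, which FPKM values cannot feed. Tests are two-sided, adjusted over all 14537 genes of a comparison (over 31858 transcripts for transcripts), and a gene was called at an adjusted p under 0.05. Ratios were compared with exact permutation tests (scipy 1.17.1). Groups came from the labels, and each library is 1 mouse. The fit was tested on simulated data.

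The 10 genes and all lists were chosen with earlier results of these data known. The text names the 10 genes, up to 4 called genes of each list and comparison with the largest fold change, or the 2 most abundant where fewer than 2 were called, and the 3 genes most like Vegfa and Kdr. Tie1, Ptprb and the marker genes named beyond this rule were chosen after their values were seen. Of the listed genes, 2 are not reported here and enter no count of a list. Positions, codons and coding sequences are from GENCODE M21 (GRCm38.p6, whose chromosome coordinates are those of the authors' build) and promoters from RefSeq. Alternatives were the pseudocount, the filter, scaling, the fit, the transcript with the highest mean in place of the sum, a replicate block and leaving out each library.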

Additional observations from a re-analysis of the deposited data

How the results depend on the processing

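The fall of Emcn in dbdb vs. control was called under all 20 alternatives run, that of Pecam1 under 19, of Kdr under 18 and of Cdh5 under 10. In dbR vs. dbdb Emcn was called under 16 of 20, Kdr under 12, Angpt1 under 10 and Tek under 5, and in dbR vs. control Tek under 19, Flt1 under 15 and Angpt1 under 10. None of these called fold changes changed sign under any of the 20. Many of the 20 could not change it, since they leave the fold change itself as it is. These are the filters, the fit without the trend, the fit to 6 libraries, the replicate block and leaving out a library of the group not compared. Leaving out the mitochondrial genes and scaling to equal sums raised the median of all genes in dbdb vs. control to 0.15 and moved the share of calls that were higher from 49.5% to 78.3%, from 75.9% to 48.6% in dbR vs. dbdb and from 51.1% to 70.5% in dbR vs. control. Scaling to the 75th percentile gave 62.3% in the last. With mitochondrial genes left out, 2 of the 10 genes (Emcn and Pecam1) were called in dbdb vs. control, where 4461 of all genes were. In dbR vs. dbdb 1 of the 10 was called, where 107 of all genes were. Kdr gave -0.19 in dbdb vs. control, which is -0.34 relative to that median of all genes.

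The 4 calls of dbR vs. dbdb became 1 without a filter on low values, 1 in a fit to the 6 libraries and 0 without the variance trend. All genes called there numbered 108, and 31 without a filter, 166 at a mean of at least 1 FPKM, 203 with the 75th percentile, 234 with quantile normalization, 36 with 6 libraries, 49 with the transcript of the highest mean and 18 without the trend. With 1 library left out, 2 to 4 of the 10 genes were called in dbdb vs. control, 0 to 3 in dbR vs. dbdb and 1 to 3 in dbR vs. control. Of all genes 2755 to 3834, 2 (without dbR 2) to 141 and 2477 to 3570 were called in these comparisons. Without dbR 2, no more than 2 of Nrp2, Gpihbp1, Sema3a and Pdgfrb can thus have kept their call in dbR vs. dbdb. Such fits have fewer samples; for the other settings the cause was not tested. The replicate block left 2 of the 10 and 23 of all genes in dbR vs. dbdb. Replicates of 1 number correlated at -0.175 to 0.0615 in their deviations from the group means, and those of unlike number at -0.108 to 0.168. No pairing by number was seen, and other groupings of the libraries were not tested.

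Angpt2 and Nos3 had the fewest estimated fragments, at most 98 and 143 per library, and the part of depth in their spread was not tested.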
